A study of Drosophila melanogaster with 36 samples.

Results

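Among transcripts of the fat body in the abdomen of male Drosophila melanogaster, 61 of 11261 tested probe sets had signals that peaked around dawn in flies labelled WT. They were selected on those WT values: a curve with a 24 h period was fitted to the 24 WT arrays, and a probe set was kept when the ordinary F test of the curve gave a p under 0.01 and its fitted peak fell from ZT 21 to ZT 24 or from ZT 0 to under ZT 3, where ZT counts hours from lights on. The clock genes Clk, cyc, per, tim, vri, Pdp1, cwo and cry and the gene sxe2 were left out by name, which removed 1 probe set each of Clk and sxe2. Of the 61, 58 carried 1 gene symbol and stood for 57 genes, since Nop60B had 2 probe sets. Another member carried several symbols and 2 carried none. The WT rhythm of a member is therefore a description of the choice and no finding, and the dnClk arrays, which the curve did not use, hold the same measure in other samples.

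The series set a WT course against a course of flies labelled dnClk, a name used for a version of the clock protein Clock that blocks its normal copy. WT flies were w; UAS-dnClk/+ and so carried the transgene with no driver named. The driver in dnClk flies, and so the cells that made the protein, are not given in the sources used. All flies were males entrained from eclosion for 5 days at 25 °C to days with 12 h of light, and each array held RNA pooled from 10 fat bodies. WT has 24 arrays, 1 every 2 h over 2 days, and dnClk has 12, 1 every 4 h. No time point was replicated, so the time points serve as replicates of the curve, p-values measure the spread of arrays around it, which may be partly technical. Precision is limited by how many arrays there are.

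The fly clock is a feedback loop in which Clock and Cycle switch on the genes of their own repressors. Direct targets of Clock and Cycle tend to rise toward the evening and early night, whereas Clk itself rises toward morning. Fat body is the fly's organ of nutrient storage and also a site of detoxification and hormone breakdown, with a clock of its own. Its transcripts respond to feeding and to light as well as to the clock. In a pooled tissue, fewer cells of a type and less RNA per cell cannot be told apart.

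Several measures of the arrays moved with genotype or time. Bacterial hybridisation controls lay at 11.54 to 12.67 log2 units in WT and 9.87 to 10.61 in dnClk with no overlap, and how the arrays were processed cannot be told apart from genotype. Clk, the gene of the transgene's product, had a mean of 7.17 ± 0.47 (SD, 24 arrays) in WT and 9.37 ± 0.21 (SD, 12 arrays) in dnClk. The 13 tested fat body markers had a mean of 10.45 to 11.87 in WT and 8.97 to 9.43 in dnClk. The 99th percentile of intensity over all probe sets but controls was 2692 to 4438 in WT and 1593 to 2088 in dnClk. The 16 tested testis markers ranged from 5.10 to 10.19 in WT and from 6.92 to 9.36 in dnClk, and the 10 of the accessory gland and ejaculatory tract from 5.40 to 8.76 and from 6.60 to 8.64. In WT the testis mean was highest on the ZT 36 array, on which the mean of the 61 members was lowest and 17 of them had their lowest WT value. With the means of both reproductive lists as covariates, the rule chose 196 probe sets, 53 of them among the 61. Without the ZT 36 array it chose 58, with 42 in common. When each array was centred on its median it chose 11, all of them members: Ugt36D1, Jhe, CG31205, CG42329, e, otk, CG10560, geko, Acsx3, CG12402 and the probe set with several symbols. The array median itself followed a WT curve that peaked at ZT 3.4 (amplitude 0.14 log2 units), and in dnClk one that peaked at ZT 11.9 (amplitude 0.08).

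The 61 members were a small part of the 388 tested probe sets (3.45%) with a WT p under 0.01. Of those, 193 peaked from ZT 15 to under ZT 21, 109 from ZT 9 to under ZT 15 and 23 from ZT 3 to under ZT 9. With evenly spread p-values, about 113 tested probe sets would have a p under 0.01 at any peak time. The dawn window, from which the 61 come, covers 25% of the day. Members that passed by chance cannot be told apart from the others here. Within the dawn window the peaks were uneven: 35 members peaked from ZT 21 to under ZT 23, 16 from there to under ZT 1 and 10 later. Thus 43 members peaked before lights on and 18 after. The amplitude, the height of the fitted curve above its midline in log2 units, had a median of 0.33 and ran from 0.15 to 1.37. As a fold from trough to peak the median was 1.59 and the largest 6.66. The limma F test, Benjamini-Hochberg adjusted over all tested probe sets, called 21 of the 61, against 0.648% of all probe sets. At the edges of the rule, vito (p = 0.00991) and CG9630 (p = 0.00976) were just inside the p threshold, and Hrb98DE (p = 0.01002) and Skel (p = 0.0104) just outside. At the early edge l(3)72Dn peaked at ZT 21.03 and Fas1 at ZT 21.04, while Rtc1 at ZT 20.98 and CG7582 at ZT 20.96 were left out. At the late edge Ugt36D1 (ZT 2.94) and CG12402 (ZT 2.93) were kept, and Ugt35B1 (ZT 3.15) and CG17560 (ZT 3.43) were not.

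**Figure D1:**
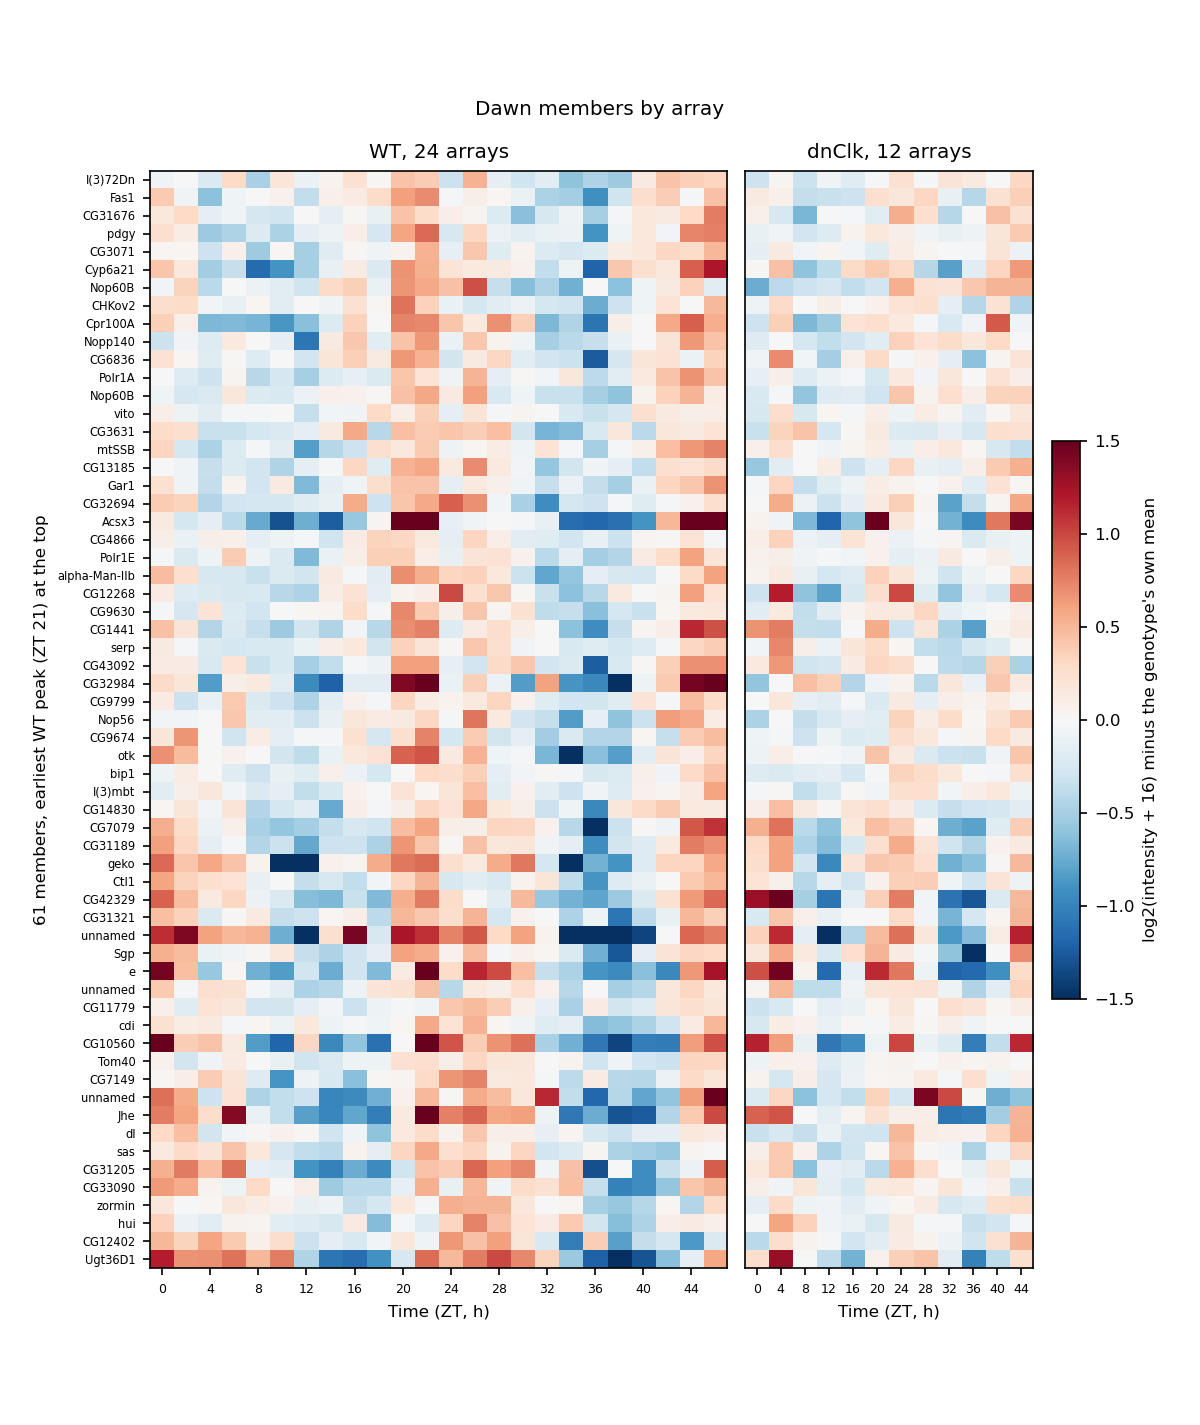
Each row is 1 of the 61 members, ordered by fitted WT peak from ZT 21 at the top to ZT 3 at the bottom, and each column is 1 array in time order, with ZT in hours. Colour gives log2(intensity + 16) minus the mean of that genotype, so differences in mean level are not shown. Red gathers near ZT 20 to ZT 26 and at the end of the WT course, and in dnClk rows such as CG42329, e and CG10560 show red and blue at like times, while rows such as Polr1A stay pale.

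In dnClk a dawn-high pattern was seen in some of the members and not in others. No member passed the adjusted threshold for a 24 h curve, as 4 of all 11261 probe sets did (0.0355%), but 23 of the 61 had an unadjusted limma p under 0.05, against 1.72% of all tested. The cosine term, which is positive when a transcript is higher at ZT 0 than at ZT 12, was above 0 in 52 of the 61 members, where 43.4% of all probe sets had it above 0. With an unadjusted limma p under 0.05 it was higher at dawn in 21 members (1.23% of all) and lower at dawn in 0 (0.417%). After adjustment 0 members were called higher at dawn (0.00888% of all). The median cosine term of the members in dnClk was 0.12 log2 units and that of all tested probe sets -0.02. The fitted cosine term of the members' mean was 0.23. Fitted terms of some marker means had the same sign, at 0.43 for the 5 tested gut markers and 0.37 for the accessory gland list. That of the testis list was -0.37. The gut mean spread widely over the dnClk arrays, from 5.633 to 9.504 log2 units, and the members' mean from 7.099 to 7.719. Whether the terms of the marker means differ from 0 was not tested, so no shared course is read from them. With both reproductive lists as covariates 20 members had an unadjusted limma p under 0.05 for the 24 h curve (3.57% of all). The part of gut tissue was not tested.

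**Figure D2:**
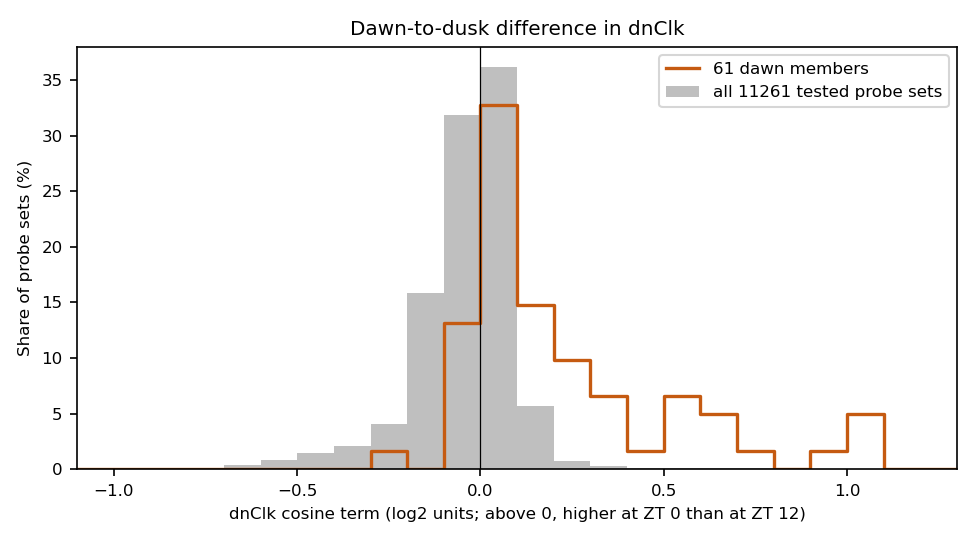
Share of probe sets (%) against the dnClk cosine term in log2 units, in steps of 0.1, with all 11261 tested probe sets as grey bars and the 61 members as a line. The members' line extends to the right, up to 1.10, while the bars gather around 0.

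A stricter count used the arrays directly. In 8 members, all 6 dnClk arrays from ZT 20, 0 and 4 lay above all 6 from ZT 8, 12 and 16, a pattern shown by 14 of the 11261 probe sets (0.124%). They were Ugt36D1, Jhe, CG42329, CG31189, CG10560, geko, the probe set with several symbols and 1 of those with no symbol. A fitted dnClk peak inside the ZT 21 to ZT 3 window, with no threshold, was found for 38 of the 61 and for 20.7% of all probe sets. Among the 23 members with an unadjusted p under 0.05, 19 had their dnClk peak in the window, and the widest shift between genotypes was 1.90 h. In 15 of the 23 the dnClk peak was the earlier one, with a median shift of -0.50 h. The ZT 4 array of day 1 held the highest dnClk value of 24 members. Without it, 22 members had an unadjusted p under 0.05 for the curve, and 3 passed after adjustment with limma: Cyp6a21 (adjusted p = 0.0201), CG42329 (adjusted p = 0.0201) and CG7079 (adjusted p = 0.0247). Taken by itself, day 1 of dnClk gave a cosine term above 0 in 50 members and day 2 in 49, where 48% and 62.3% of all tested probe sets had one. With centred arrays it was above 0 in 60 members and in 69.4% of all, and with the reproductive covariates in 44 members and in 47.2% of all.

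Enzymes of conjugation and oxidation were among the members with an unadjusted limma p under 0.05 for the dnClk curve. Ugt36D1 encodes a UDP-glycosyltransferase, an enzyme that attaches sugars to small lipophilic molecules. Its WT intensity ranged from 86.4 to 712.7 with a median of 413, lowest at ZT 38 and highest at ZT 0. In dnClk the dawn arrays held 346.3 to 839.4 with a median of 414, and the dusk arrays 155.1 to 327.2 with a median of 249.1. The sets did not overlap, and the dnClk amplitude was 0.70 ± 0.13 log2 units (SE, 12 arrays; unadjusted limma p = 0.000783, adjusted p = 0.534). Cyp6a21, a cytochrome P450, peaked at ZT 21.3 in WT and at ZT 20.3 in dnClk, in the night and before the window. Its dnClk amplitude was 0.53 ± 0.11 (SE; unadjusted limma p = 0.00176, adjusted p = 0.826), and its dawn arrays at 174.3 to 382.2 overlapped its dusk arrays at 129.9 to 305.3. Of 65 tested P450 genes Cyp6a21 was the 1 member, and Ugt36D1 the 1 member of 16 tested UDP-glycosyltransferases.

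Genes of juvenile hormone breakdown and the takeout-like family formed a second group. Jhe encodes juvenile hormone esterase, which inactivates the hormone. Its WT intensities ran from 8.0 at ZT 38 through a median of 44.6 to 163.9 at ZT 22. In dnClk the dawn arrays held 170.8 to 321.2 and the dusk arrays 67.3 to 165.7, so that the dawn values were the higher ones throughout. The dnClk cosine term was 0.64 ± 0.18 (SE; unadjusted limma p = 0.00433, adjusted p = 0.958). CG31189 and CG7079 belong to the takeout-like proteins, named after a clock-regulated gene of feeding behaviour and related to juvenile hormone binding proteins of other insects. The pair lies on chromosome arm 3R with 1 protein-coding gene between them in the Release 6 gene table. CG31189 ranged from 45.1 to 181.7 in WT with a median of 97.1. Its dnClk dawn arrays held 121.0 to 174.6 with a median of 134.7 and the dusk arrays 63.7 to 114.6 with a median of 80.6. WT and dnClk amplitudes were 0.51 and 0.50 ± 0.08 (SE), with peaks at ZT 23.5 and ZT 23.8 (dnClk unadjusted limma p = 0.000260, adjusted p = 0.266). CG7079 was brighter, at 242.4 to 1548.3 in WT, and its dnClk dawn arrays at 610.7 to 1064.3 overlapped the dusk arrays at 335.3 to 668.4. The dnClk cosine term of CG7079 was 0.62 ± 0.11 (SE; unadjusted limma p = 0.000148, adjusted p = 0.208). Of 14 tested takeout-like genes these were the 2 members, and 8 (57.1%) had a fitted WT peak in the window, as had 17.1% of all tested genes, a count that the rule's own contrast gives.

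CG10560 and CHKov2 belong to the ecdysteroid kinase-like family and also lie near each other on 3R, with 2 genes between them. CG10560 had the larger swing of the pair: WT intensities ran from 48 at ZT 38 to 1083.4 at ZT 22 with a median of 159.8. In dnClk its dawn arrays held 176.0 to 442.8 and its dusk arrays 82.3 to 174.9. They did not overlap, although the gap between 176.0 and 174.9 was narrow. The dnClk cosine term was 0.98 ± 0.16 (SE; unadjusted limma p = 5.20e-05, adjusted p = 0.112). For CHKov2 the dnClk amplitude was 0.12 ± 0.10 (SE; unadjusted limma p = 0.525), and dawn arrays at 123.3 to 216.6 overlapped dusk arrays at 125.4 to 205.4. Neighbours in the genome thus gave unlike dnClk courses, a difference that was not tested.

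CG42329, geko and e, the ebony gene, had some of the widest dnClk courses. CG42329 was dim in WT, at 19.3 to 96.6 with a median of 43.0. In dnClk its dawn arrays held 67.9 to 222.7 with a median of 118.2, and its dusk arrays 19.6 to 62.2 with a median of 34.8. Its amplitude was 0.62 in WT and 1.10 ± 0.17 (SE) in dnClk, where the cosine term had an unadjusted limma p of 4.95e-05 and an adjusted p of 0.112. Ebony joins beta-alanine to amines such as dopamine and is needed for cuticle colour and for rhythms of locomotion. The e probe set ranged from 13 to 155.0 in WT with a median of 30.3. Its dnClk dawn arrays held 83.1 to 269.6 with a median of 176.4 and its dusk arrays 29.2 to 91.8 with a median of 34.8, with 1 array apiece reaching into the overlap. The dnClk cosine term was 1.10 ± 0.21 (SE; unadjusted limma p = 0.000228, adjusted p = 0.257). Ebony was also 1 of the 6 tested markers of cuticle and epidermis, whose mean was 6.94 to 7.92 log2 units in WT and 7.04 to 8.0 in dnClk, with cosine terms of 0.16 and 0.21. The part of that tissue in the course of e was not tested. The geko probe set was bright at 120.6 to 928.5 in WT, with its low at ZT 12. Its dnClk dawn arrays held 681.3 to 869.7 and its dusk arrays 281.8 to 651.5, without overlap (cosine term 0.58 ± 0.11 SE, unadjusted limma p = 0.000266, adjusted p = 0.272).

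**Figure D3:**
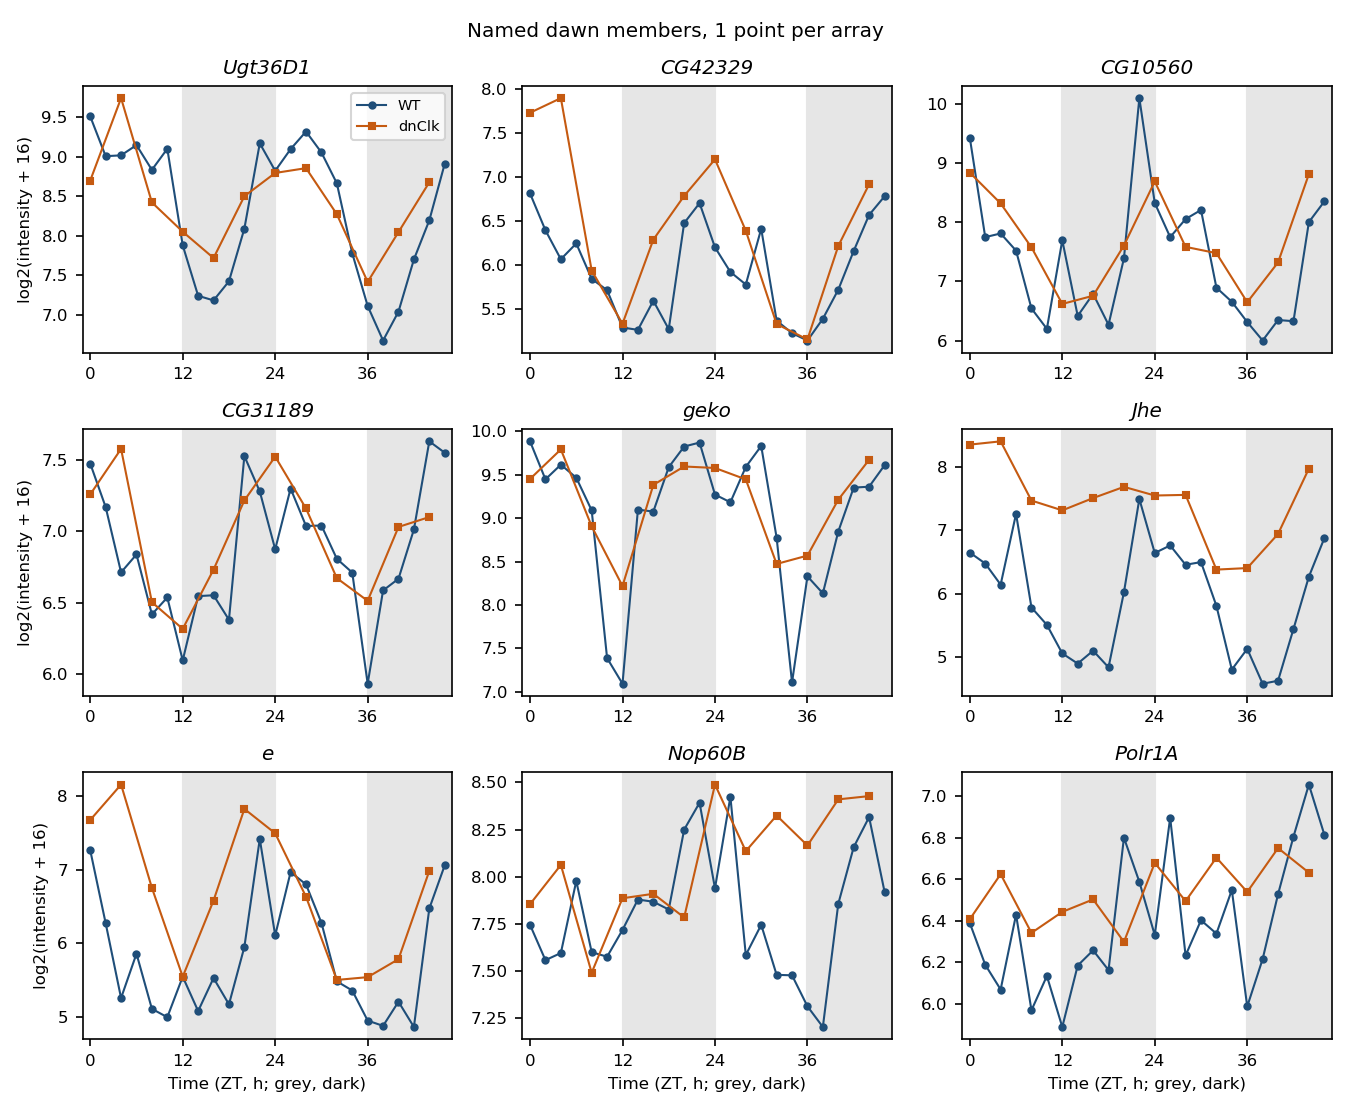
Intensities on the log2(intensity + 16) scale by array for 9 members, against time in hours from the first lights on (blue circles, 24 WT arrays; orange squares, 12 dnClk arrays; grey, dark hours; 1 point per array, no error bars; axes differ between panels). Ugt36D1, CG42329, CG10560, CG31189, geko, Jhe and e are lower near ZT 12 and ZT 36 than near ZT 0 and ZT 24 in both genotypes, while Nop60B and Polr1A show no such course in dnClk.

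Enzymes of fatty acyl chains made up a further 5 members. Acsx3 and pdgy encode acyl-CoA synthetases, which activate fatty acids, and CG1441, CG12268 and Sgp belong to the fatty acyl-CoA reductases, which turn activated fatty acids into alcohols. In each of the 5 the dnClk curve had an unadjusted limma p under 0.05, from 0.00206 for Acsx3 to 0.0423 for Sgp, where 1.72% of all tested probe sets had one. The group was put together after its values were seen. After adjustment each had a limma p of 0.864. Acsx3 ranged from 37.3 at ZT 10 to 1658.3 at ZT 44 in WT with a median of 104.4. Its dnClk amplitude was 1.02 ± 0.21 (SE), with dawn arrays at 135.9 to 506.9 and dusk arrays at 53.3 to 257.2. CG12268 was dim, at 32.9 to 132.9 in WT with an amplitude of 0.34, and had a dnClk amplitude of 0.59 ± 0.20 (SE). For CG1441 the amplitudes were 0.54 in WT and 0.47 ± 0.15 (SE) in dnClk, and for Sgp they were 0.45 and 0.56 ± 0.19. The probe sets of CG1441 and CG12268 are of a type that can match more than 1 transcript of a family. pdgy had the smallest dnClk swing of the group, with amplitudes of 0.42 in WT and 0.21 ± 0.06 (SE) in dnClk and a dnClk peak at ZT 19.8, before the window. Among 13 tested reductase genes the 3 named were the members, and CG17560 and CG17562, which peaked at ZT 3.4 and ZT 3.7 in WT, fell just after the window. Both had a dnClk course with a peak inside the window. For CG17560 the dnClk amplitude was 0.62 ± 0.12 (SE; peak ZT 1.5, unadjusted limma p = 0.00119). For CG17562 it was 0.86 ± 0.14 (SE; peak ZT 2.0, unadjusted limma p = 0.000222). A dawn-high dnClk course was thus not particular to the member reductases. Other reductase genes peaked near dusk in WT, among them CG4020 at ZT 11, CG14893 at ZT 12.9 and CG8306 at ZT 13.8, and their unadjusted limma p-values in dnClk were 0.861, 0.231 and 0.468.

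The cell surface proteins sas, Fas1 and otk were dawn members with moderate dnClk courses. Stranded at second (sas) and fasciclin 1 (Fas1) are membrane-bound proteins of epithelia and of neurons, and otk is a receptor-like transmembrane protein. The sas signal had an amplitude of 0.33 in WT and 0.34 ± 0.08 (SE) in dnClk, where the dawn arrays at 104.7 to 143.5 overlapped the dusk arrays at 70.1 to 108.8. The Fas1 dawn arrays held 217.6 to 268.8 and the dusk arrays 149.5 to 244.8, with an amplitude of 0.32 ± 0.08 (SE). Unadjusted limma p-values of the curve were 0.00300 for sas, 0.00600 for Fas1 and 0.0328 for otk. The mannosidase gene alpha-Man-IIb, whose product trims sugar chains on glycoproteins, peaked at ZT 22 in both genotypes, with a dnClk amplitude of 0.24 ± 0.06 (SE; unadjusted limma p = 0.00863).

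Genes of ribosome production were members with small fitted dnClk amplitudes. Nop60B and Gar1 encode subunits of the particles that convert uridines of ribosomal RNA to pseudouridine, Nop56 a subunit of those that methylate it, Nopp140 and vito nucleolar proteins, and Polr1A and Polr1E subunits of RNA polymerase I. Their 8 probe sets peaked in WT from ZT 21.4 to ZT 22.6, with amplitudes of 0.15 to 0.37. None passed in WT after adjustment, with limma adjusted p-values from 0.063 for Gar1 to 0.439 for vito. With arrays centred on their medians the rule kept none of them. Without the WT ZT 36 array it lost Polr1A, Polr1E, Nopp140 and vito. Their WT rhythms are thus weakly held. In dnClk the amplitudes were 0.00 to 0.12, with a median of 0.07, and unadjusted limma p-values of 0.321 to 0.998. Polr1A ranged from 43.2 to 117.2 in WT and from 62.7 to 91.7 in dnClk, where dawn arrays held 62.7 to 86.5 and dusk arrays 65.1 to 91.7. The dnClk amplitude of Polr1A was 0.00 ± 0.07 (SE). For Polr1E the dnClk arrays ran from 88.2 to 109.2, a range inside the 50.4 to 143.9 of WT, and the amplitude was 0.02 ± 0.05 (SE). Nop56 had a dnClk amplitude of 0.05 ± 0.12 and Gar1 of 0.12 ± 0.07 (SE). Both Nop60B probe sets gave alike amplitudes, 0.10 ± 0.12 and 0.11 ± 0.18 (SE), but unlike dnClk peaks, at ZT 20.9 and ZT 15.9. In dnClk the dimmer Nop60B probe set held 118.6 to 174.0 on day 1 and 241.1 to 311.3 on day 2. Nop56 held 189.5 to 267.2 on day 1 and 275.8 to 357.9 on day 2. Such a step between days adds to the spread around the curve, and the dnClk day difference was not tested. The standard errors leave room for amplitudes of 0.2 or more in several of these genes, and the p-values do not show that the rhythm is absent.

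A wider list of ribosome biogenesis genes gave the surroundings of these members. Of 19 tested genes 4 were members (Nop60B, Nop56, Polr1A and Nopp140), 9 had a fitted WT peak in the window and 17 had a WT cosine term above 0. Over all 8472 tested genes, 17.1% had a WT peak in the window and 4506 had a WT cosine term above 0. Because the WT curve is what chose the members, these counts describe the list and support nothing. Other genes of the list include Fib, which encodes the methyltransferase fibrillarin and peaked at ZT 22.7 in WT (amplitude 0.21, ordinary F test p = 0.0547). Nnp-1 peaked at ZT 20.8 (amplitude 0.31). Some peaked farther from the window, such as Non1 at ZT 15.9 (amplitude 0.27), Mys45A at ZT 17.8 (0.21) and Ns2 at ZT 4.6 (0.07). In dnClk 0 of the 19 had an unadjusted limma p under 0.05 for the curve, where 163 of 8472 tested genes did. The list's median dnClk cosine term was 0.05 and that of all tested genes -0.0036.

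The members with no single symbol included the widest WT swing. The probe set with several symbols ranged from 89.5 to 2671.0 in WT with a median of 1401, and its dnClk dawn arrays at 566.7 to 1133.6 lay above its dusk arrays at 102.7 to 540.5. Its amplitude was 1.37 in WT and 1.02 ± 0.22 (SE) in dnClk (unadjusted limma p = 0.00257). Of the unnamed probe sets, the brighter one had dnClk dawn arrays at 259.0 to 359.9 and dusk arrays at 178.8 to 241.9, without overlap. The dimmer one overlapped, at 19.5 to 126.9 and 16.5 to 91.3.

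The remaining named members had small or moderate courses. CG31676, l(3)mbt, CG31321, CG43092, serp, CG3631, bip1, CG14830, CG9799, CG4866, hui, CG9674 and CG6836 had WT amplitudes of 0.16 to 0.42 and dnClk amplitudes of 0.02 to 0.28. Of these, hui had an unadjusted limma p under 0.05 in dnClk (0.0357). serp, a chitin deacetylase gene, had an amplitude of 0.21 in WT and 0.14 ± 0.12 (SE) in dnClk. CG9674, a glutamate synthase gene, had 0.29 and 0.07 ± 0.08 (SE).

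The WT amplitudes chose the members and so lean high, and nothing is read from their size against dnClk. The fitted amplitude was smaller in dnClk in 54 of the 61, with medians of 0.33 in WT and 0.21 in dnClk. Over all tested probe sets the medians were 0.13 and 0.12. Of the 21 members with an adjusted limma p under 0.05 in WT, 16 had an unadjusted p under 0.05 in dnClk, as did 7 of the other 40. By peak time, 9 of the 35 that peaked from ZT 21 to under ZT 23 had one, 10 of the 16 from there to under ZT 1 and 4 of the 10 after. The test of a difference in rhythm between genotypes contains the WT curve. It called 0 members after adjustment (0% of all) and 11 at an unadjusted p under 0.05 (1.59%), namely Jhe, CG31205, CG42329, otk, zormin, CG7149, cdi, CG32984, CG3071, CG11779 and mtSSB. In CG42329 the dnClk amplitude was the larger. CG31205 went from an amplitude of 0.82 in WT to 0.23 ± 0.12 (SE) in dnClk, and CG7149 from 0.39 to 0.02 ± 0.07. For mtSSB, the single-stranded DNA binding protein of mitochondria, the values were 0.32 and 0.14 ± 0.07, with a dnClk peak at ZT 5.6.

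**Figure D4:**
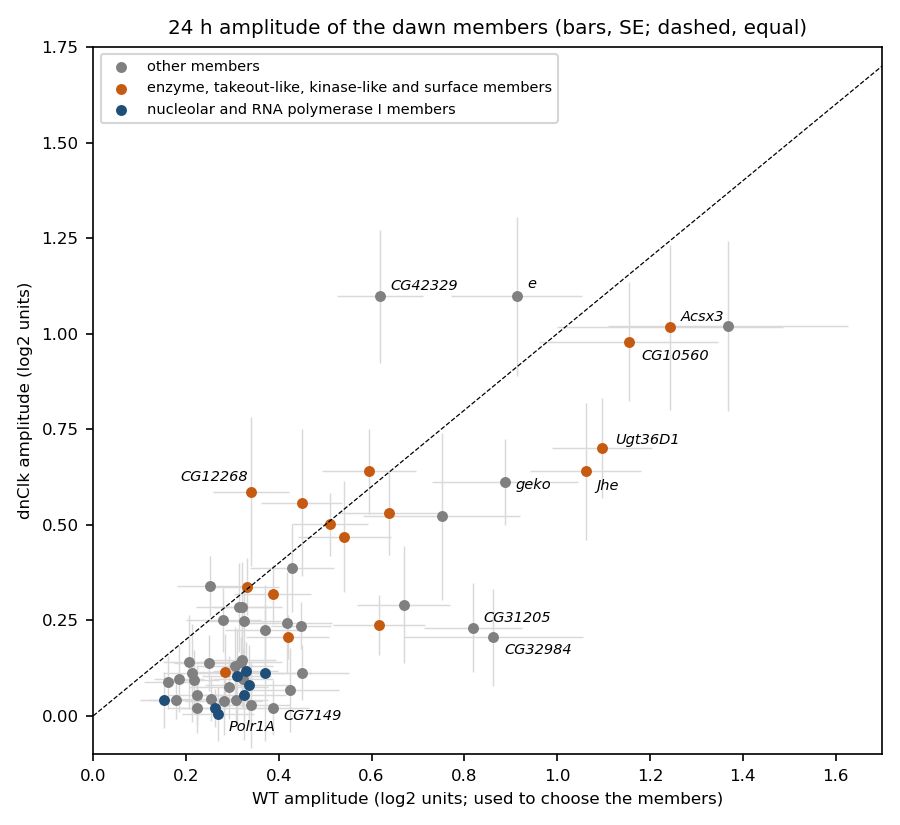
Fitted 24 h amplitude in dnClk against that in WT, both in log2 units, for the 61 members (bars, SE; dashed line, equal amplitudes; orange, the fatty acyl, conjugation, takeout-like, kinase-like and cell surface members; blue, nucleolar and RNA polymerase I members; grey, the rest). The blue points lie at dnClk amplitudes of 0.12 or less, and CG42329 and e lie above the dashed line.

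By moderated t, the lowest dnClk cosine terms belonged to CG32984, CG11779, CG13185 and CG3071. For CG32984 the term was -0.20 ± 0.13 (SE; unadjusted limma p = 0.136, adjusted p = 0.958), and its dnClk peak was fitted at ZT 11.6, against ZT 22.6 in WT. In dnClk its dawn arrays held 29.2 to 59.2 and its dusk arrays 34.1 to 76.6, which overlapped. CG13185 had a cosine term of -0.06 ± 0.12, CG11779 of -0.05 ± 0.08 and CG3071 of -0.03 ± 0.06 (SE). For the others, 1 SE on either side reaches past 0.

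Mean levels differed between genotypes in 32 members. With limma, adjusted over all tested probe sets, 25 members were higher in dnClk and 7 lower, while 39.3% of all probe sets were called higher and 17.7% lower. These shares are near the background. The median difference was 0.15 log2 units over the members and 0.25 over all tested probe sets. The split depended on scaling: with quantile normalization 11 members were higher and 17 lower, against 2280 and 2940 of all 11261 probe sets, whose median was -0.01. With arrays centred on their medians 8 were higher and 20 lower, against 1291 and 3822 of all, whose median was -0.14. WT and dnClk arrays did not overlap in 4 members (10.7% of all probe sets), namely Cpr100A, CG31205 and Ctl1, which were higher in dnClk, and Tom40, which was lower.

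**Figure D5:**
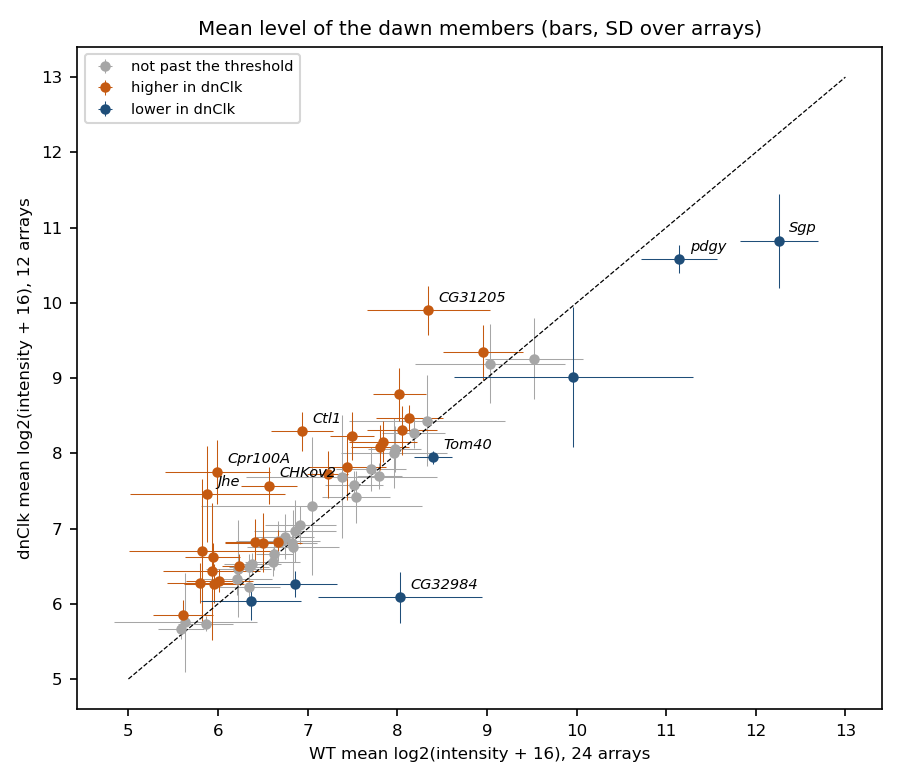
Mean log2(intensity + 16) over the 12 dnClk arrays against that over the 24 WT arrays for the 61 members (bars, SD over arrays, which includes the daily course; dashed line, equal levels). Orange points passed the limma threshold as higher in dnClk and blue ones as lower, on the deposited scaling. Cpr100A, Jhe and CG31205 lie farthest above the line and CG32984 and Sgp farthest below it.

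Among the members with raised level, Cpr100A, a cuticle protein gene, ranged from 13.9 to 102.4 in WT with a median of 51.6 and from 119.3 to 392.1 in dnClk with a median of 194.1. The difference was 1.76 ± 0.13 log2 units (SE; limma adjusted p = 9.21e-14), or 3.39-fold. Jhe, with a WT median of 44.6 and a dnClk median of 168, was 1.58 ± 0.15 higher (limma adjusted p = 1.12e-10). CG31205 ranged from 114.8 to 593.8 in WT and from 605.7 to 1353.5 in dnClk, a rise of 1.55 ± 0.12 (limma adjusted p = 7.20e-13). Ctl1, a choline transporter-like gene, held 50.2 to 169.2 in WT and 218.6 to 388.4 in dnClk, a difference of 1.35 ± 0.09 (limma adjusted p = 9.18e-15). CHKov2 rose by 1.01 ± 0.09 and e by 0.88 ± 0.18. All of these were higher in dnClk under quantile normalization and median centring too, although e no longer passed with centred arrays (0.49).

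The most lowered member was CG32984, at 61.5 to 911.3 in WT with a median of 231.2 and 29.2 to 76.6 in dnClk with a median of 53.6. Its level fell by 1.94 log2 units (SE 0.21; limma adjusted p = 1.09e-09), or 3.85-fold. Sgp, the brightest member, ranged from 2007.0 to 7450.8 in WT and from 571.2 to 2941.0 in dnClk, and it fell by 1.43 (SE 0.13; limma adjusted p = 3.11e-11). With quantile normalization the Sgp difference was -0.45 and still passed. CG33090 fell by 0.60, Tom40, the import pore of the outer mitochondrial membrane, by 0.45, and otk by 0.33. The otk difference no longer passed with the reproductive covariates (-0.35). pdgy was 0.56 lower on the deposited scaling, with 1202.1 to 4055.9 in WT and 1243.0 to 1992.7 in dnClk, but 0.15 higher with quantile normalization. Fat body markers were lower in dnClk as well, at 8.97 to 9.43 against 10.45 to 11.87. So was the 99th percentile of intensity, at 1593 to 2088 in dnClk and 2692 to 4438 in WT. Bright probe sets of any kind thus tended to read lower in dnClk. The part of tissue content or of array scaling in the lower levels was not tested.

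A difference between the WT days was called for a small share of the members and of all tested probe sets. A day term passed with limma in 1 member, otk (2.35% of all probe sets), and 7 had an unadjusted p under 0.05 (20.8%). otk was 0.45 ± 0.11 log2 units lower on day 2 (SE; limma adjusted p = 0.0336). Fitted on each WT day by itself, 43 members peaked in the window on day 1 and 58 on day 2. Each day is a part of the WT arrays that chose the members for this window. These counts of peaks therefore describe the choice, and nothing is read from them. A 12 h component, which makes a daily curve sharper or double, passed with limma in 0 members (0% of all) and had an unadjusted p under 0.05 in 12 (13.6%). Among these were CG32984 (unadjusted limma p = 7.46e-05) and Acsx3 (unadjusted limma p = 0.000369), both with short WT peaks. For Acsx3 the arrays at ZT 20 and ZT 22 held 752.4 and 377.8 and those at ZT 44 and ZT 46 held 1658.3 and 381.4, while all others were at 170.9 or below.

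Several members had other probe sets on the array. For dl, which encodes the NF-kappaB factor Dorsal, the member had a WT amplitude of 0.21 and another tested probe set 0.04. For zormin, a titin-like protein of muscle, the member had an amplitude of 0.32 and 3 other tested probe sets 0.08 to 0.17. The second tested probe set of CG32694 had an amplitude of 0.09. In each of these 3 genes, 1 probe set met the rule and the others did not.

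The member genes were spread over the chromosome arms unevenly. By the Release 6 gene table, 24 of the 57 lay on 3R (42.1%), which held 24.9% of the tested genes, 11 on 3L, 10 on 2R, 8 on 2L and 4 on X. This was not tested. Clk, which the rule left out, peaked at ZT 2.5 in WT with an amplitude of 0.49 and had a dnClk amplitude of 0.04 ± 0.09 (SE). Its mean was 7.17 log2 units in WT and 9.37 in dnClk. The part of the transgene in this dnClk signal was not tested, so the amplitude need not be that of the fly's own Clk. sxe2, also left out, had amplitudes of 1.18 and 1.10 ± 0.10 (SE) and passed in dnClk (limma adjusted p = 0.00761).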

How the data were processed

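The authors' deposited values are linear probe set intensities from Affymetrix arrays, made with MAS5, for which the submitters' processing notes name no version. Every deposited array has a trimmed mean of 150.0 (2% off each end), and this scaling was kept. The 183 control probe sets were set aside, which left 18769, and the 60% with the highest mean of log2(intensity + 16) were tested (11261). Folds are on that scale and understate changes of dim probe sets. Symbols came from GEO's platform annotation, updated through a Release 6 gene table, which found 13544 of 13647 single-symbol probe sets. No coordinates or sequences are given.

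Curves of 24 h period, level, day and 12 h terms were fitted with limma 3.58.1 in R 4.3.3 over all tested probe sets, with Benjamini-Hochberg adjustment over them and a threshold of 0.05. Scripts were tested on simulated data. Members and lists were chosen with earlier results of these data known. Named were members with the largest WT amplitudes, smallest dnClk p-values, extreme dnClk cosine terms, largest level differences and day terms, the edges of the rule and list members. Genes outside that rule (Gar1, Polr1E, sas, alpha-Man-IIb, mtSSB, CG7149, cdi, zormin, CG32694, Fib, Nnp-1, Non1, Mys45A, Ns2, CG17562, CG4020, CG14893, CG8306 and the 13 remaining members listed together), and the groups by role, were chosen after their values were seen. Alternatives were other pseudocounts, scalings, filters, covariates, tests, arrays and days.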

Additional observations from a re-analysis of the deposited data

How the results depend on the processing

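Of 61 members, other settings of the rule gave 11 with arrays centred on their medians, 196 with testis and accessory gland covariates, 21 by limma adjusted p, 20 from WT day 1, 32 from WT day 2 and 17 from the 12 shared times. Leaving out 1 WT array gave 48 to 73. The 23 members with an unadjusted p under 0.05 in dnClk became 9 of the 17 chosen at shared times and 17 to 23 with 1 array left out. They became 12 on dnClk day 1 (4.25% of all) and 24 on dnClk day 2 (28.6% of all). The 21 higher at dawn became 8 and 13 (19 to 25), and the 52 with a positive cosine term 16 of 17 (46 to 58). Adjusted calls in dnClk went from 0 to 11 on day 2 alone, and to at most 3 with 1 array left out, the 3 without ZT 4. The share of all probe sets that passed after adjustment on day 2 alone was not counted. Adjusted cosine calls went from 0 to 1 (e, day as covariate) and to 2 without ZT 4 (CG42329 and CG7079). Level calls gave 29 to 34 with 1 array left out (22 to 27 higher, 7 to 8 lower). With quantile normalization 11 were higher and 17 lower, with centred arrays 8 and 20. The 11 with an unadjusted rhythm difference became 5 (quantile), 1 (centred), 17 (covariates) and 6 (shared times), and 7 to 12 with 1 array left out, the 7 without dnClk ZT 0 or ZT 32. The 1 day call became 0 with quantile normalization or centring and 5 with covariates (otk, CHKov2, CG9674, mtSSB and the probe set with several symbols). With 1 WT array left out it was 0 in 13 cases, and 2 (otk and Cyp6a21) without ZT 36. pdgy's level turned to 0.15 with quantile normalization. That of Sgp shrank from -1.43 to -0.45 there, otk's (-0.35) lost its call with covariates and e's (0.49) with centred arrays. The 44 members with a positive cosine term under covariates were the fewest of any setting that kept all 61. The cause of these changes was not tested. Adjusted rhythm differences and 12 h components stayed at 0 under every setting run. Dim probe sets limit precision, and no scanner background was used here.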
